A study of Mus musculus with 8 samples.

Results

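The 35 genes described here carry out or accompany the burning of fatty acids in liver. They comprise 10 genes of fatty acid activation and carnitine-dependent entry into mitochondria, 11 of mitochondrial β-oxidation, 3 of electron transfer from it, 7 of peroxisomes, the ketone body enzyme gene Bdh1, and Vnn1, Aldh3a2 and Ucp2, known as targets of the fatty acid receptor PPARα. They were taken by gene name from a list drawn up with earlier results of these data known. All 35 were found among the 27218 gene names of the array. All 35 were also among the 17286 genes that passed the filter on dim signal, and the probe used for each was well above background on all 8 arrays.

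Long-chain fatty acids are first joined to coenzyme A by acyl-CoA synthetases (the Acsl genes), then carried into the mitochondrion as carnitine esters and shortened there by a repeating cycle of dehydrogenation, hydration, oxidation and thiolysis. Very long chains are shortened first in peroxisomes, and the liver turns surplus acetyl-CoA into ketone bodies for other tissues. Many of these genes are induced together in liver by PPARα during fasting or lipid load.

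Liver RNA came from male wild-type C57Bl/6J mice, an inbred laboratory strain, at 14 weeks of age, killed at 1 pm after a 4 h fast. Each group has n = 2 arrays and a name in which the maternal diet comes first and the offspring's own diet second. In BD_HF the maternal diet was a standard breeder chow, and the offspring ate a high fat chow that supplied 60% of calories as fat. LF_HF mice ate the same high fat chow, but from embryonic day 10.5 their dams received a defined low fat, vitamin A sufficient chow that supplied 12% of calories as fat. LF_LF mice had that sufficient low fat chow before and after weaning, and VAD_VAD mice a vitamin A deficient version of it. Their dams too received these chows from embryonic day 10.5. The labels number the samples but do not say that each was a separate animal, so p-values measure only the spread between these samples.

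Levels are log2 signals relative to the 75th percentile of the same array, so they compare one gene between arrays and not one gene with another. Differences are between group means on that scale with their standard error (SE). A gene was called when its p-value from limma, a linear model that shares the estimate of spread between genes, was under 0.05 after Benjamini-Hochberg adjustment over all genes tested. The comparisons share the LF_LF, LF_HF or BD_HF arrays, so their values are not independent of each other. BD_HF minus LF_LF is not among the 3 comparisons in the study's design, and in it the maternal diet differs as well as the diet after weaning.

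The LF_HF replicate 1 array stood apart from the other 7. It had 2707 outlier spots against 46 to 316 elsewhere, 88.4% of its spots were well above background against 57.6% to 64.7%, and its negative controls read 70.5 against 20.4 to 25.1. Its replicate correlation with LF_HF replicate 2 over genes was 0.919, against 0.977 to 0.992 in the other groups. The 35 genes shared in this: their median on LF_HF replicate 1 was 0.86 lower than on LF_HF replicate 2 (median difference −0.86, with 3 of 35 positive), while all genes differed by a median of −0.31 and the brightest genes, those with a mean level above the 75th percentile of genes, by −0.88. For that reason each result is also given from 7 arrays, with that array left out. Hepatocyte markers such as Alb, Ttr and Apoa1 were likewise lower on it: 9 of the 10 listed were measured, Serpina1a was not, and their median difference was −1.08 with 0 of 9 positive. The summed level of those 9 markers was 1764 on LF_HF replicate 1 and 3921 on LF_HF replicate 2, in units of the array's 75th percentile, and 2386 to 3856 on the other 6 arrays.

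**Figure D1:**
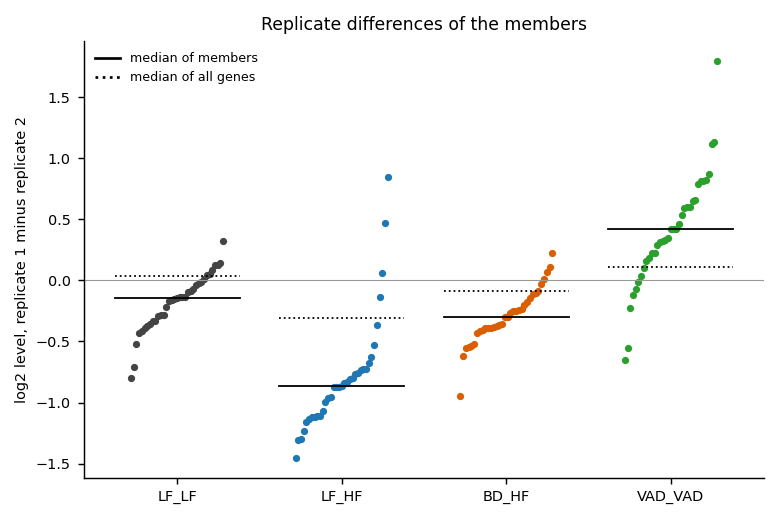
Difference between the replicates of each group for the 35 genes, as log2 level on replicate 1 minus replicate 2. Each point is 1 gene, solid lines are the medians of the 35 genes and dotted lines those of all genes. The LF_HF median was −0.86, against −0.30 in BD_HF, −0.15 in LF_LF and 0.42 in VAD_VAD.

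With all 8 arrays, limma called 0 of the 35 genes in any of the 4 comparisons. In LF_HF minus LF_LF, 0.607% of all genes were called higher and 1.98% lower, while 0 of the 35 were higher and 6 lower at an unadjusted p under 0.05, where 16.5% of all genes reached that in either direction. In BD_HF minus LF_LF the shares of all genes called were 0.457% higher and 1.16% lower, while 2 of the 35 lay higher and 2 lower at an unadjusted p under 0.05, against 12.7% of all genes. In VAD_VAD minus LF_LF they were 0.0926% and 0.521%, with 1 of the 35 higher and 2 lower before adjustment, against 10.2% of all genes. In BD_HF minus LF_HF they were 0% and 0.00579%, with 3 of the 35 higher and 0 lower before adjustment, against 5.41% of all genes.

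With the 7 arrays that leave out LF_HF replicate 1, 3 calls appeared among the 140 gene and comparison pairs: Acsl1 higher and Acsl4 lower in BD_HF minus LF_LF, and Acsl4 lower in VAD_VAD minus LF_LF. The shares of all genes called were then 2.61% higher and 6.67% lower in BD_HF minus LF_LF and 1.28% and 4.11% in VAD_VAD minus LF_LF. They were 2.29% and 8.93% in LF_HF minus LF_LF and 0% in each direction in BD_HF minus LF_HF, where 0 of the 35 were called. LF_HF then has 1 array, so counts at an unadjusted p are not given for the comparisons that use it. For the 3 calls, 1 of 35 in a direction is near or below the share of all genes called. The same 3 calls, with the same adjusted p, appeared when LF_HF replicate 2 was left out in place of replicate 1. A group of 1 array adds nothing to the estimate of spread, so these calls rest on leaving the distance between the LF_HF arrays out of that estimate, and no level of Acsl1 or Acsl4 in the groups compared was altered.

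That 1 array turned the direction of the 35 as a group in LF_HF minus LF_LF and changed the size of their shift, not its direction, in BD_HF minus LF_HF. For LF_HF minus LF_LF the median was −0.26 with all 8 arrays, 10 of 35 positive, and 0.14 without LF_HF replicate 1, 23 of 35 positive. It was −0.67, with 1 of 35 positive, when LF_HF replicate 2 was left out in its place. The median of all genes was −0.06, 0.09 and −0.24 in the same order. For BD_HF minus LF_HF the median was 0.46 with 34 of 35 positive, and 0.08 with 22 of 35 positive without LF_HF replicate 1, while all genes had medians of 0.17 and 0.01.

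The comparisons that do not use LF_HF kept a positive median for the 35 genes under each of the 23 alternatives. Some of these could not move it, such as leaving out an array of a group not compared or changing only the estimate of spread. In BD_HF minus LF_LF the median was 0.30 with 27 of 35 positive, against 0.08 for all genes, and it ranged from 0.12 to 0.39 over the alternatives. In VAD_VAD minus LF_LF it was 0.41 with 29 of 35 positive, against 0.07 for all genes, and it ranged from 0.04 with quantile scaling to 0.56 without VAD_VAD replicate 2. The 9 hepatocyte markers had positive medians in both comparisons too, 0.41 with 8 of 9 positive in BD_HF minus LF_LF and 0.68 with 9 of 9 positive in VAD_VAD minus LF_LF, and 0 of 9 were called. Their medians were as large as or larger than those of the 35 genes, and their part in the shift was not tested. Each slide carried 1 array of every group, with replicate 1 of each group on slide 1. Within slides the VAD_VAD median was 0.67 on slide 1 and 0.10 on slide 2, and the BD_HF minus LF_LF median was 0.24 and 0.30. The LF_HF minus LF_LF median was −0.57 on slide 1, which holds the array that stood apart, and 0.04 on slide 2.

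**Figure D2:**
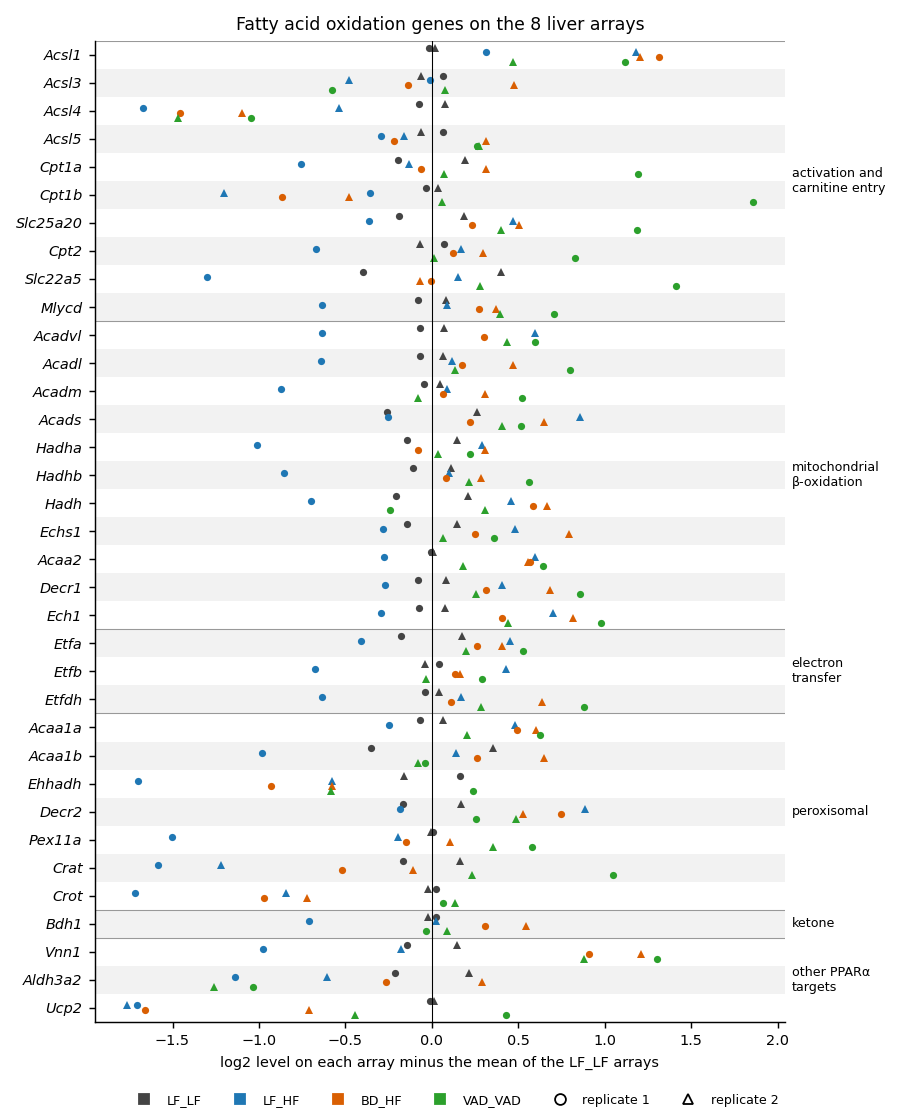
Level of each of the 35 genes on each array, as log2 difference from the mean of the LF_LF arrays, grouped by role. Colours give the diet group, and circles and triangles replicates 1 and 2. Most LF_HF replicate 1 circles lie left of the LF_HF replicate 2 triangles, and the Acsl4 points of the other 3 groups all lie left of LF_LF.

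The arrays of the groups lay fully apart for 23 of the 34 genes with a value on all 4 arrays in BD_HF minus LF_LF, 18 with BD_HF higher and 5 with it lower. Over all genes 31.8% were apart with BD_HF higher and 27.7% with it lower. In VAD_VAD minus LF_LF, 22 of 35 were apart, 20 with the deficient group higher and 2 with it lower, against 30.7% and 26.8% of all genes. In LF_HF minus LF_LF, 1 of 35 was apart with LF_HF higher and 10 with it lower, against 19.5% and 22.7%. In BD_HF minus LF_HF, 13 of 34 were apart with BD_HF higher and 0 with it lower, against 17.7% and 9.54%. Groups of 2 arrays separate often by these shares, and a separation is not a call.

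Among the genes of activation and carnitine entry, Acsl1, the main long-chain acyl-CoA synthetase of liver, was higher on both high fat groups and on the vitamin A deficient arrays than on LF_LF. Its level was 6.26 and 6.30 on the LF_LF arrays, 6.59 and 7.46 on LF_HF, 7.59 and 7.48 on BD_HF, and 7.40 and 6.75 on VAD_VAD. On this brightest probe no array of the other 3 groups overlapped LF_LF. On its other probes LF_HF replicate 1 lay within the LF_LF range. It read 4.14 where LF_LF read 3.75 and 4.17, and 3.75 where LF_LF read 3.43 and 3.88. In BD_HF minus LF_LF the difference was 1.26, a 2.39-fold higher level. It passed the threshold with 7 arrays (SE 0.272, limma adjusted p = 0.0408) and not with all 8 (SE 0.400, limma adjusted p = 0.225), the difference itself being the same since both groups were complete. Against LF_LF, LF_HF differed by 0.75 (limma adjusted p = 0.402), and 1.18 without LF_HF replicate 1 (limma adjusted p = 0.0807). In VAD_VAD minus LF_LF it was 0.79 (limma adjusted p = 0.580; 0.163 with 7 arrays), 1.14 on slide 1 and 0.45 on slide 2.

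All 3 Acsl1 probes pointed the same way in BD_HF minus LF_LF, with differences of 1.21 to 1.31. The array has 60-base probes, and those of Acsl1 and its relative Acsl5 are shown to set their values side by side: the Acsl5 probe gave 0.05 in the same comparison (limma adjusted p = 0.979), and the difference between the genes was not tested. Positions are in mm9, the build the scanner files name, and the probe sequences are from those files. The Acsl1 probe shown lies at chr8:47619774-47619833 on the plus strand, and its log2 level was 3.75 and 4.17 on LF_LF and 5.46 and 5.08 on BD_HF. The Acsl5 probe lies on the plus strand within chr19:55368743-55369331, so its 60 bases cover 589 bases of genome and cross an intron. Its level was 4.77 and 4.65 on LF_LF, 4.41 and 4.55 on LF_HF, 4.49 and 5.02 on BD_HF, and 4.97 and 4.98 on VAD_VAD.
Acsl1: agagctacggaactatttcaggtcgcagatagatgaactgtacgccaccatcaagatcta
Acsl5: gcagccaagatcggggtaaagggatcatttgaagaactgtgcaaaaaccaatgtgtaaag

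Acsl4, a synthetase that prefers arachidonic acid, went the other way. Its level was 4.24 and 4.39 on LF_LF, 2.65 and 3.78 on LF_HF, 2.86 and 3.22 on BD_HF, and 3.27 and 2.85 on VAD_VAD, so that the LF_LF arrays were above all 6 others. With 7 arrays it fell by 1.28 in BD_HF minus LF_LF (2.42-fold, SE 0.257, limma adjusted p = 0.0327; 0.263 with all 8). With the same 7 it fell by 1.26 in VAD_VAD minus LF_LF (2.39-fold, SE 0.257, limma adjusted p = 0.0466; 0.359 with all 8). LF_HF differed from LF_LF by −1.10 (limma adjusted p = 0.267), and by −0.54 without LF_HF replicate 1 (limma adjusted p = 0.374). Both of its probes had the same sign in that comparison and in BD_HF minus LF_LF, where they differed by −1.28 and −1.12. Its probe lies on the minus strand at chrX:138752602-138752661 in mm9.

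Of the marker lists of other cells, those of macrophages, stellate cells and cholangiocytes had their highest summed levels on the same LF_LF arrays. The summed level of macrophage markers, 9 of 10 measured with Adgre1 not among them, was 191 and 173 on LF_LF and 63.0 to 124 on the other 6 arrays. That of 7 stellate cell and fibroblast markers was 209 and 178 against 58.6 to 135, and that of 5 cholangiocyte markers 15.2 and 22.0 against 5.21 to 8.66. Their part in the Acsl4 and Ucp2 values was not tested, and in whole liver fewer cells of a type cannot be told apart from less RNA per cell. Endothelial markers, 6 of 6 measured, did not follow that order: they summed to 29.3 and 30.4 on LF_LF, 43.3 and 54.2 on BD_HF, 39.8 and 52.7 on VAD_VAD, and 23.0 and 12.8 on LF_HF. Pancreatic acinar markers, 3 of 6 measured with Prss2, Pnlip and Cpa1 not passing the filter, summed to 1.85 and 1.49 on LF_LF and 2.19 to 4.99 on the other 6 arrays. Neutrophil markers, 4 of 6 measured with Ly6g and Elane not passing the filter, summed to 19.6 and 26.3 on VAD_VAD and 1.80 to 6.34 elsewhere. Adipocyte markers, 3 of 5 measured with Adipoq and Retn not passing, summed to 13.7 on BD_HF replicate 2 and 0.08 to 2.23 on the other 7 arrays. For erythroid markers, 3 of 6 measured, the sum was 189 and 341 on VAD_VAD, 187 and 164 on BD_HF and 62.4 to 91.3 on the remaining 4 arrays.

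The other 7 genes of activation and entry were not called with 8 or with 7 arrays. Cpt1a, the carnitine palmitoyltransferase that gates entry into liver mitochondria, had a level of 5.46 and 5.85 on LF_LF, 4.90 and 5.53 on LF_HF, 5.59 and 5.97 on BD_HF, and 6.85 and 5.73 on VAD_VAD. On this probe one deficient array, replicate 1, was high and the other lay within the LF_LF range. The difference was 0.63 (SE 0.459, limma adjusted p = 0.721). A dimmer Cpt1a probe had both deficient arrays, at 4.83 and 4.09, above LF_LF, at 3.18 and 3.79, a difference of 0.97. In LF_HF minus LF_LF the dimmer probe differed by 0.02 and the brighter by −0.44. VAD_VAD replicate 1 was highest of the 8 arrays for Cpt1b, the muscle form of that enzyme, at 0.47 against −1.33 on VAD_VAD replicate 2. Skeletal muscle markers, 3 of 5 measured with Ckm and Myh4 not passing the filter, summed to 0.310 and 0.341 on those arrays and 0.220 to 0.918 on the other 6. It was also highest for Slc25a20, the carnitine-acylcarnitine carrier of the inner membrane (3.33 against 2.55), for Cpt2, which releases the acyl group inside (6.93 against 6.11), and for Slc22a5, which takes up carnitine (1.90 against 0.76). Mlycd, which degrades the CPT1 inhibitor malonyl-CoA, was 6.34 and 6.02 on VAD_VAD and 5.55 and 5.72 on LF_LF. Acsl3, a synthetase of lipid droplets and endoplasmic reticulum, ranged from 0.08 to 1.13 with overlapping groups in each of the 3 comparisons against LF_LF. Over the 10 genes the median difference was 0.15 in BD_HF minus LF_LF, 0.59 in VAD_VAD minus LF_LF (0.96 on slide 1 and 0.11 on slide 2), and −0.26 in LF_HF minus LF_LF, −0.02 without LF_HF replicate 1.

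**Figure D3:**
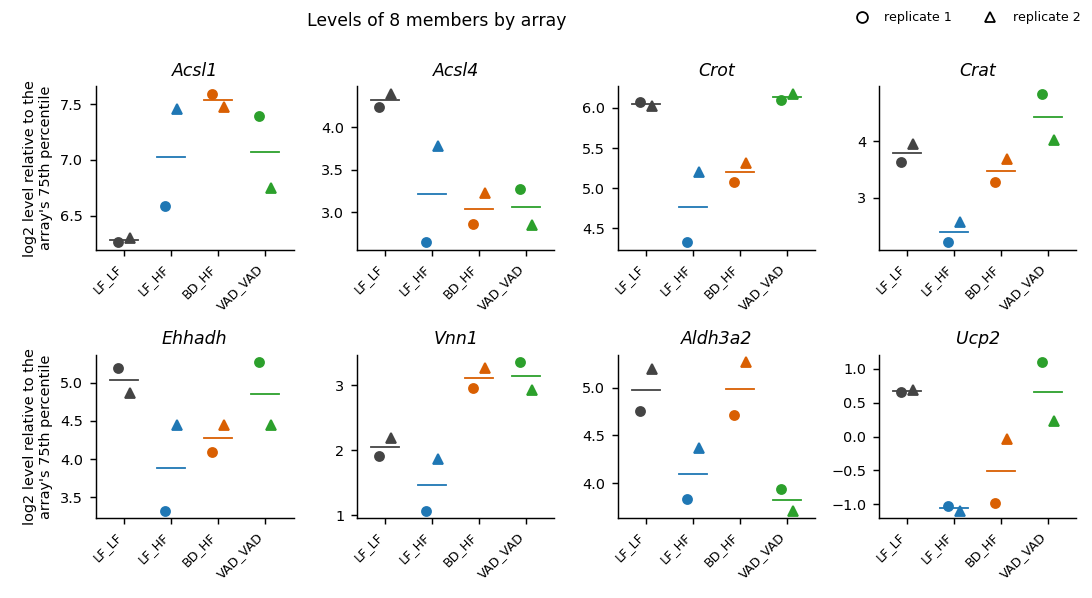
Log2 level, relative to the array's 75th percentile, of 8 genes on each array, with replicates as circles and triangles and group means as bars. Acsl1 is lowest and Acsl4 highest on the LF_LF arrays, at 6.26 and 6.30 and at 4.24 and 4.39, and Crot separates both high fat groups from both low fat groups. Each panel has its own axis, which does not start at 0.

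The mitochondrial β-oxidation genes shared one sign in both comparisons that do not use LF_HF, and 0 of 11 were called with 8 or with 7 arrays. All 11 were positive in BD_HF minus LF_LF, with differences of 0.11 to 0.63 and a median of 0.43, which was 0.39 for slide 1 alone and 0.43 for slide 2 alone. All 11 were also positive in VAD_VAD minus LF_LF, from 0.03 to 0.71 where the median was 0.41, but 0.67 for slide 1 alone and 0.10 for slide 2 alone. The hepatocyte markers had medians of 0.41 and 0.68 in these comparisons, so a shift of this size was not particular to β-oxidation. With quantile scaling the β-oxidation medians of both comparisons were lower, 0.21 with 10 of 11 positive for BD_HF and 0.06 with 6 of 11 positive for VAD_VAD. Of the 11, 5 were positive in LF_HF minus LF_LF with a median of −0.02, and all 11 were positive, from 0.09 to 0.86 with a median of 0.46, without LF_HF replicate 1. The corresponding medians of all genes were 0.08, 0.07, −0.06 and 0.09. For BD_HF minus LF_HF all 11 were positive with a median of 0.43, and 6 of 11 with a median of 0.04 without that array.

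The acyl-CoA dehydrogenases take the first step for chains of different length. Acadvl, for very long chains, was 6.84 and 6.97 on LF_LF, 6.27 and 7.50 on LF_HF and 7.50 and 7.34 on VAD_VAD. It had a value on 1 BD_HF array alone, 7.21 on replicate 1, since the other spot was an outlier and was left out of the fit. Acads, for short chains, was 2.64 and 3.16 on LF_LF and 3.11 and 3.55 on BD_HF, and in LF_HF minus LF_LF it differed by 0.30 (limma adjusted p = 0.779), or 0.86 without LF_HF replicate 1 (limma adjusted p = 0.187). Acadl, for long chains, differed by 0.32 in BD_HF minus LF_LF, and Acadm, for medium chains, by 0.19. Without LF_HF replicate 1 they differed by 0.12 and 0.09 in LF_HF minus LF_LF.

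Later steps had values in the same range. Acaa2, the mitochondrial thiolase, was 8.74 and 8.75 on LF_LF, 8.47 and 9.34 on LF_HF, 9.31 and 9.30 on BD_HF, and 9.39 and 8.92 on VAD_VAD. All BD_HF and VAD_VAD arrays were above the LF_LF arrays, and the difference in BD_HF minus LF_LF was 0.56 (SE 0.382, limma adjusted p = 0.655; 0.213 with 7 arrays). Hadh, the short-chain hydroxyacyl-CoA dehydrogenase, differed by 0.63 in that comparison and Echs1, the short-chain hydratase, by 0.52. Ech1 and Decr1, which handle double bonds of unsaturated chains, differed by 0.61 and 0.50, and in VAD_VAD minus LF_LF by 0.71 and 0.56. Hadh had the smallest difference of the 11 in VAD_VAD minus LF_LF, 0.03.

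Hadha and Hadhb encode the 2 subunits of the trifunctional protein, which carries out the last steps for long chains, and their starts face away from each other. In the RefSeq table of GRCm38.p6 the start of Hadha, on the minus strand, is at position 30154980 of chromosome 5 and that of Hadhb, on the plus strand, at 30155253. The 272 bases between, chr5:30154981-30155252 on the plus strand, are shown because they separate the starts of the subunit genes, with the GC boxes (GGGCGG, searched on both strands) in capitals.
Hadha and Hadhb, between starts: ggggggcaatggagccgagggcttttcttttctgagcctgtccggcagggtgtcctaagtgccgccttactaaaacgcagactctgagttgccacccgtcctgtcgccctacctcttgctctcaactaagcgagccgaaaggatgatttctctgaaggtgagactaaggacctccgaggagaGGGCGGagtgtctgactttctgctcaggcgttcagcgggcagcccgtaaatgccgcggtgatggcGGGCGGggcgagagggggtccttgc

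The stretch held 2 GC boxes and 0 CCAAT boxes (CCAAT, both strands), with 60.3% G and C. Hadha had levels of 2.73 and 3.02 on LF_LF, 1.87 and 3.17 on LF_HF, 2.80 and 3.19 on BD_HF and, on VAD_VAD, 2.91 for replicate 2 with replicate 1 within the range of the other groups. Hadhb had levels of 5.09 and 5.30 on LF_LF, 4.34 and 5.29 on LF_HF, 5.28 and 5.48 on BD_HF, and 5.76 and 5.41 on VAD_VAD. Both genes were lowest on LF_HF replicate 1, and their differences were 0.11 and 0.18 in BD_HF minus LF_LF, 0.13 and 0.39 in VAD_VAD minus LF_LF, and −0.36 and −0.38 in LF_HF minus LF_LF. Without LF_HF replicate 1 the last pair was 0.29 and 0.10. The Hadha probe used was the brightest of 3 that passed the filter. Of the 3, 2 had the same sign in LF_HF minus LF_LF. For VAD_VAD minus LF_LF the range over them was −1.11 to 0.13, so the probes disagree there. The 2 dimmer probes are annotated to other transcript records than the probe used. Their levels were −7.14 to −2.11 over the arrays.

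Electron transfer flavoprotein, made of the Etfa and Etfb products, hands electrons from these dehydrogenases to its oxidoreductase, encoded by Etfdh. All 3 were positive in BD_HF minus LF_LF, by 0.33, 0.15 and 0.37 in that order, and in VAD_VAD minus LF_LF, by 0.36, 0.13 and 0.58, and 0 of 3 were called with 8 or 7 arrays. Between LF_HF and LF_LF they differed by 0.02, −0.12 and −0.23, and by 0.45, 0.43 and 0.17 without LF_HF replicate 1. Etfb had levels of 8.25 and 8.17 on LF_LF and 8.34 and 8.37 on BD_HF, a narrow separation.

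**Figure D4:**
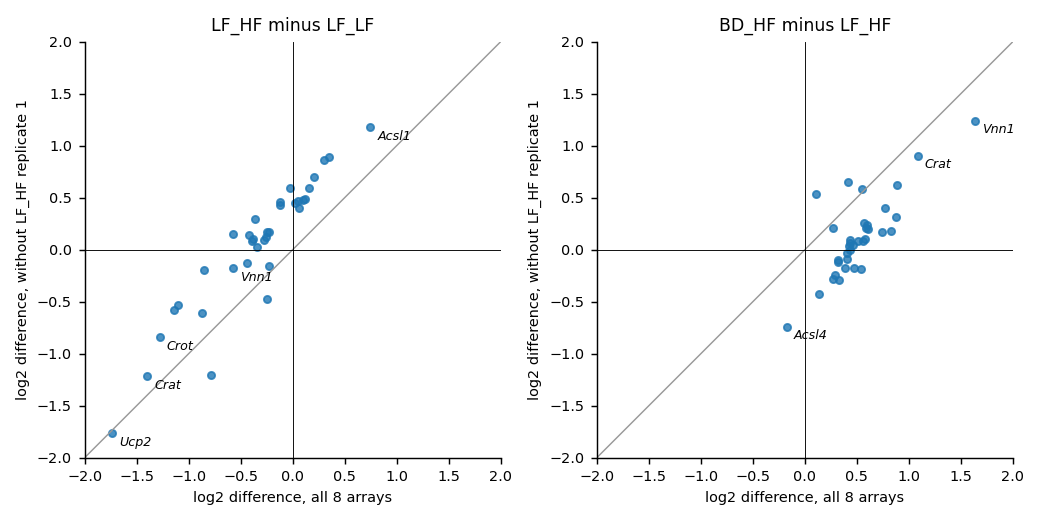
Log2 differences of the 35 genes with all 8 arrays (horizontal axis) and without LF_HF replicate 1 (vertical axis), for both comparisons that use LF_HF. Each point is 1 gene and the grey line marks equal values. Leaving the array out raised the LF_HF minus LF_LF median from −0.26 to 0.14 and lowered the BD_HF minus LF_HF median from 0.46 to 0.08, while Ucp2 and Crat stayed lower in LF_HF than in LF_LF.

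The peroxisomal genes did not share one direction in the comparisons against LF_LF, and 0 of 7 were called with 8 arrays. For LF_HF minus LF_LF 5 of 7 were negative with a median of −0.85, and 4 of 7 with a median of −0.20 without LF_HF replicate 1. In BD_HF minus LF_LF 4 of 7 were negative with a median of −0.02. For VAD_VAD minus LF_LF 7 of 7 were positive on slide 1 (median 0.42) and 5 of 7 on slide 2 (median 0.14). For BD_HF minus LF_HF 7 of 7 were positive on slide 1 (median 0.93), which holds the array that stood apart, and 5 of 7 on slide 2 (median 0.12). Crot, which makes carnitine esters of medium chains for export from the peroxisome, had levels of 6.07 and 6.02 on LF_LF, 4.33 and 5.20 on LF_HF, 5.07 and 5.32 on BD_HF, and 6.10 and 6.17 on VAD_VAD. All 4 high fat arrays were below all 4 low fat arrays. The difference was −1.28 in LF_HF minus LF_LF (SE 0.369, limma adjusted p = 0.143) and −0.84 without LF_HF replicate 1 (SE 0.259, limma adjusted p = 0.101). In BD_HF minus LF_LF it was −0.85 (SE 0.369, limma adjusted p = 0.404; 0.0618 with 7 arrays), and in VAD_VAD minus LF_LF 0.10.

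Both Crot probes had the same sign in these high fat comparisons. The dimmer is shown because it lies elsewhere in the gene and shows the same separation of high fat from low fat arrays: its level was 2.45 and 2.21 on LF_LF, 0.65 and 1.61 on LF_HF, 1.84 and 1.52 on BD_HF, and 2.38 and 2.46 on VAD_VAD. It lies at chr5:8987814-8987873 on the minus strand in mm9, and the brighter one, whose levels are given above, at chr5:8966430-8966489.
Crot: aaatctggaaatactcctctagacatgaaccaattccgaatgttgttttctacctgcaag

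Crat, the carnitine acetyltransferase of mitochondria and peroxisomes, was lowest in LF_HF. Its level was 3.63 and 3.96 on LF_LF, 2.21 and 2.58 on LF_HF, 3.27 and 3.68 on BD_HF, and 4.84 and 4.03 on VAD_VAD. Neither LF_HF array overlapped any other group. The difference from LF_LF was −1.40 (SE 0.391, limma adjusted p = 0.131), −1.42 on slide 1 and −1.38 on slide 2, and −1.22 without LF_HF replicate 1 (limma adjusted p = 0.131). BD_HF minus LF_HF was 1.09 (limma adjusted p = 0.782; 0.90 and 0.658 without that array), and BD_HF minus LF_LF was −0.32 with overlapping arrays.

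Ehhadh, the bifunctional enzyme of the peroxisome and a classical PPARα target, was 5.19 and 4.87 on LF_LF, 3.33 and 4.45 on LF_HF, 4.09 and 4.45 on BD_HF, and 5.27 and 4.44 on VAD_VAD. Both high fat groups lay below LF_LF, by 1.14 in LF_HF (difference −1.14, limma adjusted p = 0.291; −0.58 and 0.462 without LF_HF replicate 1) and by 0.76 in BD_HF (difference −0.76, limma adjusted p = 0.612; 0.231 with 7 arrays). Pex11a, which acts in peroxisome division, was 6.28 and 6.26 on LF_LF and 6.12 and 6.37 on BD_HF, with LF_HF at 4.77 and 6.07. Its difference in LF_HF minus LF_LF thus went from −0.85 to −0.20 without LF_HF replicate 1. Decr2, the peroxisomal dienoyl-CoA reductase, was 5.06 and 5.39 on LF_LF, 5.04 and 6.11 on LF_HF, 5.97 and 5.75 on BD_HF, and 5.48 and 5.71 on VAD_VAD. It differed by 0.64 in BD_HF minus LF_LF (limma adjusted p = 0.630; 0.164 with 7 arrays) and by 0.89 in LF_HF minus LF_LF without LF_HF replicate 1 (limma adjusted p = 0.119).

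Acaa1a and Acaa1b are near copies that encode the peroxisomal thiolases, and cross-reading between their probes was not tested, so the member is uncertain. Acaa1a differed by 0.55 in BD_HF minus LF_LF (limma adjusted p = 0.637), with 0.51 to 0.65 over its 3 probes, and by 0.42 in VAD_VAD minus LF_LF. Acaa1b differed by 0.45 in BD_HF minus LF_LF with overlapping arrays, and by −0.06 in VAD_VAD minus LF_LF. An Acaa1a probe that crosses an intron is shown, since it reads spliced RNA. In mm9 it lies on the plus strand within chr9:119255643-119256863, a span of 1221 bases. Its levels were 4.49 and 5.03 on LF_LF and 5.18 and 5.64 on BD_HF.
Acaa1a: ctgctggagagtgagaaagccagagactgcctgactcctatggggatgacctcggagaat

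Bdh1, which interconverts the ketone bodies acetoacetate and β-hydroxybutyrate, was 6.29 and 6.25 on LF_LF, 5.56 and 6.30 on LF_HF, 6.58 and 6.82 on BD_HF, and 6.24 and 6.36 on VAD_VAD. On this probe both BD_HF arrays were above the other 6. A dimmer Bdh1 probe did not separate them, at 1.36 and 1.85 on BD_HF and 1.35 and 1.58 on LF_LF. It differed by 0.14 in BD_HF minus LF_LF and by −0.21 in VAD_VAD minus LF_LF. On the brighter probe the difference was 0.42 in BD_HF minus LF_LF (SE 0.348, limma adjusted p = 0.737; 0.285 with 7 arrays). From LF_LF to LF_HF it was −0.35, or 0.02 without LF_HF replicate 1, and in VAD_VAD minus LF_LF 0.03.

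The 3 further PPARα targets each had a pattern of their own. Vnn1, the pantetheinase that recycles coenzyme A precursors, was 1.91 and 2.19 on LF_LF, 1.07 and 1.87 on LF_HF, 2.96 and 3.26 on BD_HF, and 3.35 and 2.93 on VAD_VAD. The BD_HF and VAD_VAD arrays were above the other 4 without overlap. Its differences were 1.06 in BD_HF minus LF_LF (SE 0.383, limma adjusted p = 0.30; 0.0573 with 7 arrays) and 1.09 in VAD_VAD minus LF_LF (SE 0.383, limma adjusted p = 0.367; 0.0679 with 7 arrays). Between BD_HF and LF_HF it was 1.64 (limma adjusted p = 0.782), 1.89 on slide 1 and 1.39 on slide 2, and 1.24 without LF_HF replicate 1 (limma adjusted p = 0.278). Among the 35 genes that was the largest difference in the maternal diet comparison, in either fit.

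Aldh3a2, the fatty aldehyde dehydrogenase, was 4.76 and 5.19 on LF_LF, 3.83 and 4.37 on LF_HF, 4.71 and 5.26 on BD_HF, and 3.94 and 3.72 on VAD_VAD. The VAD_VAD arrays lay below both LF_LF arrays, with a difference of −1.15 (SE 0.369, limma adjusted p = 0.311; 0.0787 with 7 arrays), −0.82 on slide 1 and −1.47 on slide 2. BD_HF minus LF_LF was 0.01, and LF_HF minus LF_LF was −0.88 (limma adjusted p = 0.296), or −0.61 without LF_HF replicate 1 (limma adjusted p = 0.366). It was, with Acsl4, one of the pair of genes for which the deficient arrays lay wholly below LF_LF.

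Ucp2, an inner membrane carrier that in liver is known from macrophages as well as from fat-loaded hepatocytes, was 0.66 and 0.68 on LF_LF, −1.03 and −1.10 on LF_HF, −0.99 and −0.04 on BD_HF, and 1.10 and 0.23 on VAD_VAD. All 4 high fat arrays were below all 4 low fat arrays. LF_HF minus LF_LF was −1.73 (SE 0.438, limma adjusted p = 0.100), and −1.77 without LF_HF replicate 1 (SE 0.506, limma adjusted p = 0.0844), so this difference was as large without the array that stood apart. BD_HF minus LF_LF was −1.18 (limma adjusted p = 0.314; 0.144 with 7 arrays), −1.64 on slide 1 and −0.72 on slide 2. Both of its probes were negative in each of these comparisons.

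Differences that use LF_HF depended on the replicate of LF_HF. In LF_HF minus LF_LF on slide 1, which holds the array that stood apart, Acsl4 differed by −1.60 and Ehhadh by −1.86. Pex11a differed there by −1.51, Crat by −1.42 and Crot by −1.74. On slide 2 these 5 differences were −0.61, −0.42, −0.19, −1.38 and −0.82, in the same order. Of the 35 genes, 33 were negative on slide 1 and 15 on slide 2. The BD_HF minus LF_HF median was 0.81 on slide 1, with 33 of 35 positive, and 0.21 on slide 2, with 26 of 34 positive. In a fit that keeps 1 LF_HF array, that array is assumed to vary like the other groups.

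From a list of 73 other genes of the same pathways, 70 were tested. With all 8 arrays 3 of them fell in LF_HF minus LF_LF and 0 were called in the other comparisons. Of all genes, 1.98% were called lower in LF_HF minus LF_LF. Cyp4a14, a fatty acid ω-hydroxylase strongly induced by PPARα, had levels of 7.24 and 6.96 on LF_LF, 1.20 and 2.85 on LF_HF, 4.61 and 5.74 on BD_HF, and 9.33 and 7.68 on VAD_VAD. LF_HF against LF_LF, it fell by 5.08 (33.7-fold, SE 0.734, limma adjusted p = 0.0215), and by 4.25 without LF_HF replicate 1 (limma adjusted p = 0.0179). Oxct1, the enzyme of ketone body use that is low in hepatocytes, fell by 1.79 (SE 0.336, limma adjusted p = 0.0408; 0.0265 without that array), and 2 of its 3 probes pointed that way. Cd36, a fatty acid transporter, fell by 2.79 (SE 0.353, limma adjusted p = 0.0134). The median of the 70 was 0.05, with 37 positive, and 0.52 with 50 positive without LF_HF replicate 1.

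Leaving out LF_HF replicate 1 brought further calls in this list. Ppara, the receptor gene itself, was 3.96 and 4.56 on LF_LF, 4.52 and 5.04 on LF_HF, 5.73 and 5.79 on BD_HF, and 4.54 and 4.99 on VAD_VAD. It rose by 1.50 in BD_HF minus LF_LF with 7 arrays (SE 0.290, limma adjusted p = 0.0290; 0.126 with all 8). Fgf21, a fasting hormone induced by PPARα, was 1.97 and 1.57 on LF_LF, −2.70 and 0.18 on LF_HF, −1.56 and −1.65 on BD_HF, and 2.02 and 0.81 on VAD_VAD. With 7 arrays it fell by 3.37 in BD_HF minus LF_LF (10.4-fold, SE 0.410, limma adjusted p = 0.00708; 0.141 with all 8). Oxct1 then fell in BD_HF minus LF_LF by 1.57 (limma adjusted p = 0.0183) and in VAD_VAD minus LF_LF by 1.27 (limma adjusted p = 0.0483).

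In all, 5 of the 70 were called higher and 5 lower in BD_HF minus LF_LF with 7 arrays. Of all genes, 2.61% were called higher and 6.67% lower there, so the share called lower was near that of all genes. Beside Ppara, those higher that are named here were Acot3, a peroxisomal acyl-CoA thioesterase (3.44), Hacl1, of peroxisomal α-oxidation (1.37), and Slc27a5, the bile acid and very long chain acyl-CoA synthetase (1.35). Acot3 and Hacl1 were dim, which limits their values. Acot3 was −3.75 and −1.96 on LF_LF and 0.17 and 0.99 on BD_HF. Hacl1 was −4.26 and −4.95 on LF_LF and −3.48 and −2.98 on BD_HF. Beside Fgf21 and Oxct1, those lower were Cd36 (−1.45), the mitochondrial thioesterase Acot2 (−2.12) and Slc16a1, a carrier of lactate and ketone bodies (−1.31). In VAD_VAD minus LF_LF 3 were higher, Lpin1, a coactivator of PPARα and phosphatidate phosphatase (2.49), Hacl1 (1.49) and Slc27a5 (1.24), and Oxct1 alone was lower. Of all genes, 1.28% were called higher and 4.11% lower in that comparison. In LF_HF minus LF_LF, Slc27a5 (1.41) and the peroxisomal Nudt7, which degrades coenzyme A (1.43), were higher. Cyp4a14, Cd36, Oxct1, Acot2 (−3.79) and Abcd2, a peroxisomal transporter (−2.70), were lower. All of these LF_HF values rest on LF_HF replicate 2 alone. With both arrays Abcd2 and Acot2 differed by −1.23 and −2.40. Slc27a5 was 6.84 on LF_HF replicate 1 and 7.83 on replicate 2, against 6.29 and 6.55 on LF_LF. Nudt7 was 7.55 and 8.59 on LF_HF, against 7.21 and 7.11 on LF_LF. In BD_HF minus LF_HF 0 of the 70 were called with 8 arrays. There 7 were higher and 0 lower at an unadjusted p under 0.05, against 5.41% of all genes in either direction.

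**Figure D5:**
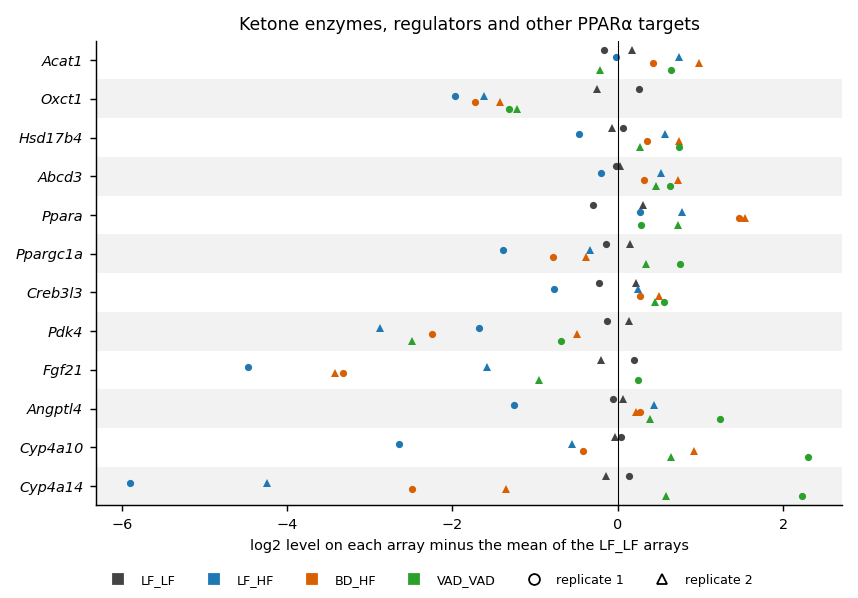
Level of 12 further genes of ketone body metabolism, peroxisomal oxidation and PPARα action on each array, as log2 difference from the mean of the LF_LF arrays, with groups in colour and replicates as circles and triangles. Cyp4a14 lies far left on the LF_HF arrays, where the mean difference was −5.08, and Fgf21 lies left on both BD_HF arrays, where it was −3.37.

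The remaining genes of that list that are named here were not called with 8 or 7 arrays. Hsd17b4, an enzyme of peroxisomal β-oxidation, differed by 0.55 in BD_HF minus LF_LF and 0.51 in VAD_VAD minus LF_LF, and the peroxisomal transporter Abcd3 by 0.52 and 0.55. Acat1, the mitochondrial acetoacetyl-CoA thiolase, differed by 0.70 in BD_HF minus LF_LF. Cyp4a10, a relative of Cyp4a14, had levels of 5.55 and 5.49 on LF_LF, 2.88 and 4.97 on LF_HF, 5.10 and 6.44 on BD_HF, and 7.83 and 6.16 on VAD_VAD, and in LF_HF minus LF_LF it differed by −1.60 (limma adjusted p = 0.386; −0.55 and 0.733 without LF_HF replicate 1). Pdk4, which spares glucose when fat is burned, differed by −2.28 in LF_HF minus LF_LF (limma adjusted p = 0.204). Angptl4, a lipase inhibitor induced by PPARα, differed by −0.41 there and by 0.43 without LF_HF replicate 1. The regulators Ppargc1a and Creb3l3 differed by −0.59 and 0.38 in BD_HF minus LF_LF.

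Promoter windows from RefSeq (GRCm38.p6), from 250 bases before to 50 after each start, were found for 30 of the 35 genes, in 32 windows. They were searched on both strands for the direct repeat bound by PPARα and its partner RXR, which is AGGTCA, 1 base of any kind and AGGTCA again, with up to 2 mismatches. Such a match was in 3 of the 32 windows (9.38%) and in 3.86% of all 32851 windows, and 0 of the 32 held one with at most 1 mismatch. The windows were those of Echs1, Etfa and Slc25a20, and the Slc25a20 match lay after the start. The others are shown with the match in capitals and 8 bases on each side, read 5′ to 3′ on the strand of the gene. The Echs1 stretch is chr7:140116484-140116512 on the minus strand, with the match at −83 to −71 from the start. The Etfa stretch is chr9:55512300-55512328 on the minus strand, with the match on the opposite strand at −77 to −65.
Echs1: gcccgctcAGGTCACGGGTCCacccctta
Etfa: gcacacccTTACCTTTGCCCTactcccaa

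Echs1 and Etfa differed by 0.52 and 0.33 in BD_HF minus LF_LF and were not called in any comparison, and neither Acsl1 nor Acsl4 had a match in its windows. A GC box was in 24 of the 32 windows (75%) and in 35.7% of all windows, and a CCAAT box in 14 (43.8%) and in 37.4%. These matches describe letters in the windows and do not show binding.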

How the data were processed

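Liver RNA was labelled with Cy3 and hybridised to 8 one-colour Agilent arrays. Per the file headers, the deposited scanner intensity values were extracted with Feature Extraction 10.7.3.1, and the processed signal is background-handled within each array and not scaled between arrays. The submitters' processing notes name Agilent Feature Extraction and limma, with no version. The deposited series table holds the same intensity values rounded (largest difference 0.497%), on a linear scale and uncentred, with column medians of 15.7 to 178.

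Outlier spots were left out and repeated spots averaged. Each array's log2 signal was set relative to its 75th percentile. Probes were kept where 1 or more groups had both arrays well above background, with the brightest probe for each gene name, leaving 17286 genes. They were fitted with limma 3.58.1 (R 4.3.3) over all 8 arrays, with Benjamini-Hochberg adjustment and a threshold of 0.05, after tests on simulated data. Python 3.11.15, pandas 2.3.3 and matplotlib 3.10.9 did the rest. All 35 genes are named, in order of role, with full statistics for those called with 8 or 7 arrays. The number of arrays limits the precision. The members, the marker lists and the list of 73 further genes were chosen with earlier results of these data known. Some genes of that list and 1 probe sequence are not reported here.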

Additional observations from a re-analysis of the deposited data

How the results depend on the processing

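Among the 35 genes, the 140 differences were recomputed under 23 alternatives, 2 of them chosen after seeing the data. The side of the threshold was kept in 3173 cases, which include uncalled differences that changed sign. The other 45 differences passed the threshold only under the alternative. Since 0 of the 35 were called with all 8 arrays, no call could be lost or reversed. With 1 BD_HF array missing for Acadvl, its differences could not be fitted without BD_HF replicate 1. Against 0 genes called with all 8 arrays, leaving out 1 array in turn gave 0 to 5 lower in LF_HF minus LF_LF, 0 to 1 higher and 0 to 1 lower in BD_HF minus LF_LF, 0 to 1 lower in VAD_VAD minus LF_LF and 0 to 6 higher in BD_HF minus LF_HF. The counts above 0 came from leaving out LF_HF replicate 1 or 2. In both comparisons that use LF_HF they came from leaving out replicate 2, which keeps only the array that stood apart. Calls over all genes were also at their highest in that fit for both comparisons. The counts there were therefore not particular to the 35 genes. Normexp background correction gave 6 of the 35 lower in LF_HF minus LF_LF, with 1074 of all 17286 genes lower. In BD_HF minus LF_LF it gave 1 higher and 1 lower, with 268 higher and 468 lower of all genes. In LF_HF minus LF_LF, quantile scaling gave 1 lower, with 736 of all genes lower. The filter on all 8 arrays also gave 1 lower there, with 530 of 14592 genes lower. Variances with a trend and robust estimation gave 2 lower there, with 645 of all genes lower. Array quality weights gave 2 higher and 3 lower in BD_HF minus LF_LF, with 1057 higher and 1730 lower of all genes. In VAD_VAD minus LF_LF they gave 1 higher and 1 lower, with 334 higher and 819 lower of all genes. Fitting only the 4 arrays of both groups gave 2 higher and 2 lower in BD_HF minus LF_LF. Of all genes, 876 were higher and 1693 lower in that fit. Scaling on the brightest genes without LF_HF replicate 1, chosen after seeing the data, keeps 1 LF_HF array. The median of all genes was then −0.12 in LF_HF minus LF_LF, −0.05 in BD_HF minus LF_LF and −0.13 in VAD_VAD minus LF_LF. The causes were not tested.

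With the replicate number as a block, which is also the slide, 0 of the 35 were called in any comparison. Same-numbered arrays deviated together with correlations of 0.098 to 0.305 over genes, which does not establish pairing. Over all genes, calls ranged from 0 to 4339 in LF_HF minus LF_LF (448 with all 8 arrays), 0 to 2787 in BD_HF minus LF_LF (279), 0 to 1153 in VAD_VAD minus LF_LF (106) and 0 to 3074 in BD_HF minus LF_HF (1). Median scaling moved the median of all genes to −0.77 in LF_HF minus LF_LF and 0.98 in BD_HF minus LF_HF. The median of the 35 genes was then −0.999 with 1 of 35 positive in LF_HF minus LF_LF and 1.30 with 35 of 35 positive in BD_HF minus LF_HF.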
